A study of Bos taurus with 2 samples.

Results

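Cluster 4 was 1 of the 15 clusters that the study's authors drew among cultured bovine satellite cells, and it held 1768 of 19096 cells. It carried high levels of mitotic transcripts and less MYOD1 mRNA than the other cluster with such levels, cluster 2. Its cells were found from the authors' table of average expression per cluster, which converts to whole sums of unique molecular identifiers (UMIs, 1 per captured RNA molecule) for every gene and cluster. The largest deviation of a converted sum from a whole UMI was 0.00011. Taken as whole UMIs, these sums fixed the cluster of every cell by elimination. The sums rebuilt from the assigned cells differed from them for 0 of 252240 pairs of gene and cluster.

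The cells came from the skeletal muscle of 1 male Holstein calf aged 2 weeks and carried no genetic change or treatment. They had been kept for 1 week in DMEM with fetal bovine serum, and 2 droplet libraries, called replicates 1 and 2, were prepared from the same cells. The spread between the libraries is therefore technical, and nothing here measures how animals differ. The medium is one in which satellite cells proliferate.

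Satellite cells are the stem cells of skeletal muscle. PAX7 and PAX3 are transcription factors of their undifferentiated state, MYF5 and MYOD1 are the regulators that commit them to the muscle lineage, and MYOG drives the later step in which myoblasts leave the cell cycle and build contractile fibres. In G2 phase a cell has copied its DNA and accumulates the kinases, kinesins and centromere proteins that mitosis needs. Many of their genes are transcribed mainly in G2 and M phase, so such transcripts mark cells about to divide or dividing.

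Replicate 1 contributed 909 cells of cluster 4 (9.15% of its 9939 cells) and replicate 2 contributed 859 (9.38% of 9157). Both libraries together gave a share of 9.26%, with an exact 95% binomial interval of 8.85% to 9.68% that covers counting error only. The cells held 17560166 UMIs in replicate 1 and 17137564 in replicate 2. Their median was 18770 UMIs and 4168.5 genes per cell, with a range of 4002 to 58838 UMIs. Cluster 4 was thus not a set of shallow cells, and 0 of its cells had fewer than 2000 UMIs. The median was 17481 UMIs in cluster 2 and 14502 in cluster 5, the clusters used below for comparison. In all, 27 cell barcodes occurred in both libraries, and 7 cells of cluster 4 carried such a barcode. A doublet score placed 186 cells (10.5%) of cluster 4 above its threshold, against 7.71% of all cells, and these cells were kept.

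Levels are given as UMIs of a gene per 10000 UMIs of the cells summed within a library. Cells of 1 library share their source and are not replicates, so each level has 1 value per library. The clusters were drawn from the counts of these genes, so differences between clusters are described without a test. A gene was counted as higher or lower where the ratio of levels reached 1.5-fold in each library, among genes with at least 20 expected UMIs on each side.

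The name given to this part, G2/M cells with low MYOD1, and its marker TOP2A were chosen with earlier results of these data known. The levels here describe the name and do not test it. TOP2A (ENSBTAG00000019262), the topoisomerase that untangles sister chromatids, had a level of 8.10 in replicate 1 and 6.88 in replicate 2, and was higher than in any of the other 14 clusters. Cluster 2 came next, with 6.23 and 5.22, and the ranges of clusters 4 and 2 did not overlap. A list of G2/M genes summed to 139 and 133 UMIs per 10000 in cluster 4, the second place after cluster 2 at 146 ± 3.53 (SD, n = 2 libraries). The same list had a level of 54.9 in cluster 11 and 30.1 in cluster 5.

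MYOD1 (ENSBTAG00000002216) had a level of 2.71 and 2.72 in cluster 4, the ninth place among the 15 clusters. Cluster 2 had 7.02 and 6.42, and clusters 3 and 6 had 6.52 and 6.18, and 6.07 and 5.44. Cluster 5 had less than cluster 4, with 1.91 and 1.93, as did clusters 11 and 9, with 1.30 and 1.41 and with 0.678 and 0.464. MYOD1 was therefore low relative to cluster 2, while 6 clusters had lower mean levels than cluster 4. The values of 1 of these, cluster 14 with 2.87 and 2.52, spanned those of cluster 4. MYF5 (ENSBTAG00000026972) was at 1.12 and 1.05, in the fifth place, and cluster 11 had 1.08 and 1.05. The highest MYF5 levels were those of cluster 8, with 1.64 and 1.49, and cluster 1, with 1.60 and 1.5.

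PAX7 rested on few molecules. Cluster 4 held 39 PAX7 UMIs, 23 in replicate 1 and 16 in replicate 2, each in a different cell, which gave levels of 0.0131 and 0.00934. Clusters 11, with 0.00865 and 0.0120, and 8, with 0.00680 and 0.0135, had values that overlapped these, and cluster 1, with 0.00815 and 0.00843, lay just below. At this depth the place of cluster 4 among these neighbours could not be told apart from the spread of the libraries. PAX3 had 50 UMIs in cluster 4, with levels of 0.0154 and 0.0134.

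**Figure D1:**
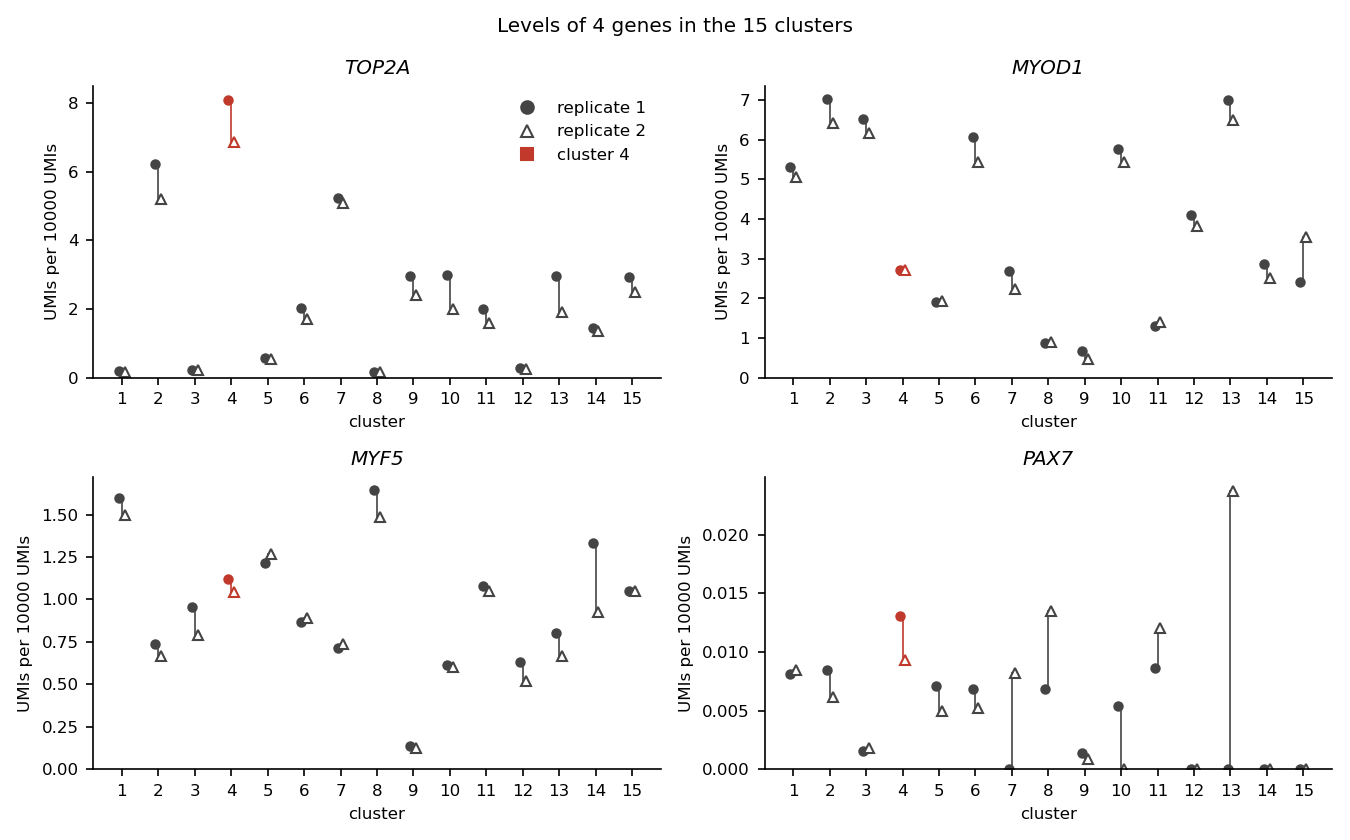
Levels of TOP2A, MYOD1, MYF5 and PAX7 in UMIs per 10000 UMIs in each of the 15 clusters, with replicate 1 as a dot, replicate 2 as a triangle and cluster 4 in red. Cluster 4 has the highest TOP2A in both libraries, MYOD1 of 2.71 and 2.72 against 7.02 and 6.42 in cluster 2, and PAX7 values that overlap those of clusters 8 and 11.

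Against all other cells, cluster 4 had 477 higher genes (4.55% of the 10479 genes compared) and 534 lower genes (5.1%), and the median log2 ratio of all genes was 0.01. The 12 genes with the largest ratios, at 1 UMI per 10000 or more, all act in chromosome segregation or division. NUSAP1, a protein that binds spindle microtubules, was at 2.92 and 2.75 against 0.804 in other cells, a log2 ratio of 1.82. CENPF, a large kinetochore protein, was at 17.2 and 16.4 against 5.24 (log2 ratio 1.68), and CENPE, a kinesin of the kinetochore, was at 4.71 and 4.40 against 1.51 (1.60). TOP2A had the largest log2 ratio among them, 2.04, from 1.82 ± 0.21 (SD, n = 2 libraries) in other cells.

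The kinases that start and drive mitosis were higher too. In the list of mitotic cyclins, kinases and their regulators, 15 of 16 genes were higher and 0 lower, with a median log2 ratio of 1.37. CDK1, the kinase whose activation starts mitosis, was at 0.759 and 0.725, with a log2 ratio of 1.59. Its partner cyclin CCNB1 was at 2.38 and 2.36 against 0.836 (1.5). PLK1, the polo-like kinase, was at 1.76 and 1.77 against 0.567 (1.64), and AURKA, which matures the spindle poles, had a log2 ratio of 1.47.

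Later steps of division were represented as well. Of the kinetochore and centromere genes, 30 of 32 were higher, with a median of 1.26, among them NDC80, which ties microtubules to kinetochores, at 1.04 and 1.05 against 0.328. Spindle and kinesin genes counted 27 higher of 33, with a median of 1.40, including KIF11, the motor that separates the spindle poles (1.63 and 1.54 against 0.490), and TPX2, which nucleates spindle microtubules (6.45 and 5.91 against 2.03). For cytokinesis the count was 10 of 10, with a median of 1.37. KIF23, a motor of the midzone, was at 1.23 and 1.24 against 0.390. Chromosome condensation genes were higher for 11 of 15. The anaphase promoting complex and its targets, which end mitosis by protein breakdown, were higher for 8 of 20, with a median of 0.35. Among the 8 were UBE2C, its ubiquitin carrier, at 8.32 and 8.29 against 2.88, and CDC20, its activator, which differed between the libraries with 1.41 and 1.96. No gene of these 6 lists was lower.

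The ratios of DNA replication genes depended on which cells stood on the other side. Against all other cells, 4.55% of all genes were higher and 5.1% lower. Of 46 replication genes in this comparison, 4 were higher and 1 lower, with a median of 0.32. The 4 were CLSPN (0.71), PRIM2 (0.81), POLA1 (0.85) and CDC45 (0.87), and the lower gene was CDC6, which loads the helicase in G1, with −0.97. With only clusters 1, 2, 3, 5, 8 and 12 as the other cells, 34 of 45 replication genes were higher and 0 lower, with a median of 0.88, and CDC6 turned to 0.28. Over all 10418 genes compared there, 805 (7.73%) were higher. Of the S phase list, 28 of 41 genes were higher against those clusters and 10 of 42 against all other cells, where 1 was lower. The mitotic cyclin and kinase list counted 16 of 16 against those clusters, with a median of 1.57. Summed over an S phase list, cluster 4 had 33.3 and 32.4 UMIs per 10000, the fifth place, with cluster 11 first at 45.3. In the list of G1 genes, 6 of 20 were higher and 3 lower against all other cells. These counts became 4 higher and 5 lower when cells were assigned by profile, and also when the other clusters were weighted equally. Inhibitors of CDK4 and CDK6 were higher, CDKN2D with a log2 ratio of 1.90 and CDKN2C with 1.32, whereas the inhibitor CDKN1C, known as p57 and linked to cell cycle exit, was at 1.59 and 1.77 against 7.97 (−2.25). CCND3, the cyclin D of differentiating muscle, had −1.17, and CCNE1, the cyclin of S phase entry, −0.71.

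Muscle genes made up the other end. Of 22 genes of muscle structure and contraction 20 were lower and 0 higher, with a median log2 ratio of −2.83. MYH3, the embryonic myosin heavy chain, was at 0.0706 and 0.0747 against 1.17 (−4.01), and MYLPF, a fast myosin light chain, at 0.423 and 0.457 against 6.63 (−3.91). Outside this list, MYOG (ENSBTAG00000006030) was at 0.139 and 0.131 against 2.39, a log2 ratio of −4.15. Of the list of MYOD1 partners and targets, ACTC1, the cardiac actin of young muscle, was at 2.60 and 3.02 against 24.2 (−3.11), and DES, the muscle intermediate filament, at 1.27 and 1.27 against 5.01 (−1.98). The only gene outside muscle among the 6 lowest was the chemokine CXCL5, at 0.109 and 0.0834 against 1.11. The other cells included cluster 12, where muscle genes were concentrated, so these ratios depend on which cells stood on the other side.

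**Figure D2:**
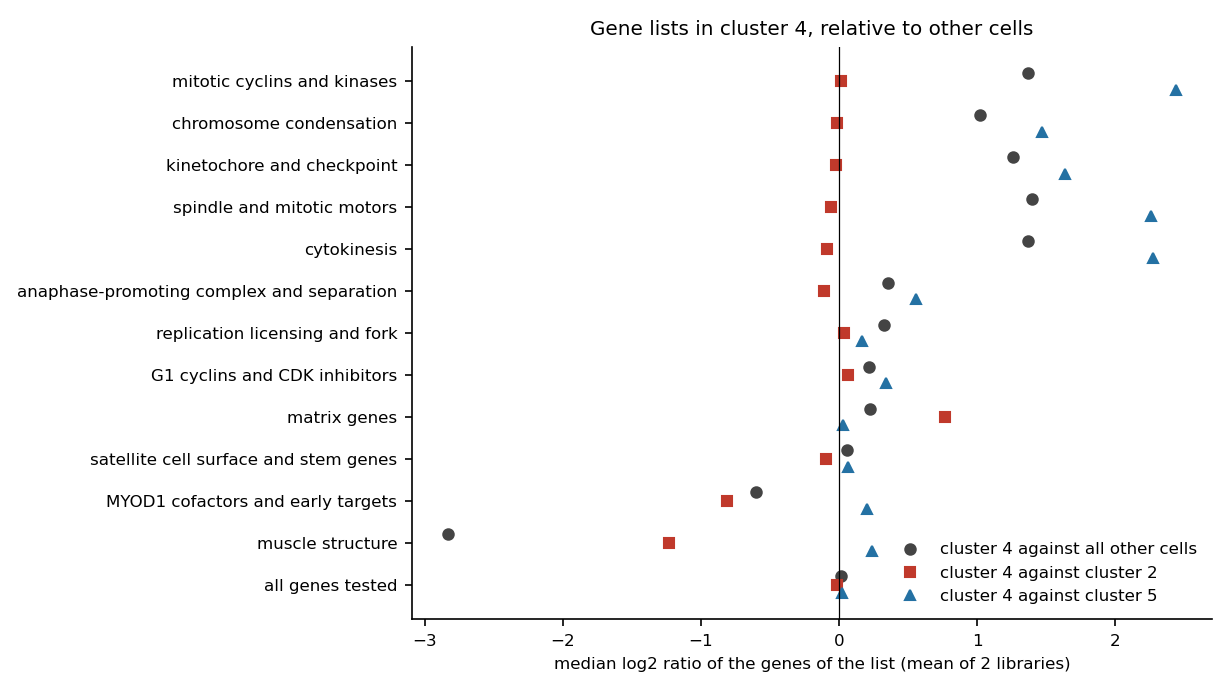
Median log2 ratio of the genes of each list, and of all genes compared, for cluster 4 against all other cells, cluster 2 and cluster 5. The mitotic lists lie between 0.35 and 1.40 against all other cells and near 0 against cluster 2, where muscle structure lies at −1.23 and matrix at 0.77.

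Cluster 2 separated the mitotic from the myogenic side of cluster 4, since both clusters shared the former. Of 10361 genes compared, 543 (5.24%) were higher in cluster 4 and 357 (3.45%) were lower, with a median log2 ratio of −0.01. No gene of the 6 mitotic lists was past 1.5-fold in either direction, and the list medians lay between −0.11 and 0.01. TOP2A had a log2 ratio of 0.39, MKI67, the nuclear antigen of cycling cells, −0.08, CENPF −0.08, PLK1 −0.10 and CCNB1 −0.26. The 46 replication genes likewise counted 0 in either direction, with a median of 0.04. Many of these genes had their highest level of all clusters in cluster 4 or cluster 2. Over all 12046 genes with at least 100 UMIs, 178 peaked in cluster 4 and 271 in cluster 2. Of 33 kinetochore genes 11 and 16 did, of 34 spindle genes 9 and 15, of 15 condensation genes 4 and 6, of 10 cytokinesis genes 1 and 9 and of 20 anaphase promoting genes 0 and 5. Of 16 mitotic cyclins and kinases, 7 peaked in cluster 4 and 5 in cluster 2. This ranking included the shallow clusters. Among only the 10 clusters with a median of at least 10000 UMIs, 787 of all genes peaked in cluster 4 and 1092 in cluster 2. The counts there were 14 and 18 for kinetochore, 11 and 21 for spindle and 7 and 8 for condensation genes. They were 1 and 9 for cytokinesis, 2 and 11 for anaphase promoting genes and 8 and 7 for mitotic cyclins and kinases.

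The myogenic regulators and their targets differed between the same clusters. MYOD1 was lower in cluster 4 by a log2 ratio of −1.31 ± 0.10 (SD, n = 2 libraries), while MYF5 was higher, with 0.63. MYOG, at 0.139 and 0.131, stood against 1.16 and 1.01 in cluster 2 (−3.01). Of 14 muscle structure genes 10 were lower and 0 higher. MYLPF stood against 2.94 and 3.11 (−2.78), and NEB, the ruler of the thin filament, and TNNC2, a fast troponin, had −2.10 and −2.13. A list of MYOD1 partners and targets counted 8 lower of 14, with a median of −0.81. ACTC1 stood against 20.2 and 20.6 (−2.87). DES was at 1.27 and 1.27 against 4.02 (−1.66), and CDKN1C at 1.59 and 1.77 against 6.79 and 7.03 (−2.04). FNDC5, the precursor of irisin, was at 0.247 and 0.250 against 1.02 and 1.06.

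Of 23 satellite cell genes, 2 were past the fold between clusters 4 and 2, both lower in cluster 4, where 5.24% of all genes were higher and 3.45% lower. The list median of −0.09 turned to 0.02, with 2 genes higher and 1 lower, when cells were assigned by profile. The lower genes were the tetraspanin CD82, at 0.695 and 0.735 against 1.78 ± 0.0972 (SD, n = 2 libraries), and the growth factor receptor FGFR4, at 0.559 and 0.572 against 0.882. PAX7 and PAX3 had too few UMIs for the comparison.

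Extracellular matrix genes were mostly higher in cluster 4 than in cluster 2. Of 19 matrix genes 14 were higher and 1 lower, with a median log2 ratio of 0.77. COL1A1, a chain of type I collagen, was at 47.9 and 48.9 against 18.9 (1.36), and COL1A2 at 57.6 and 61.7 against 36.6 (0.71). COL3A1, type III collagen, was at 46.2 and 46.5 against 25.5 (0.86), and LOX, which crosslinks collagen, had 1.29. The fibronectin gene FN1 had 1.09, and THBS1, the matricellular protein thrombospondin, was the lower gene with −0.79. The genes with the largest ratios were of several kinds. IGFBP5, which binds insulin-like growth factors, was at 1.59 and 1.47 against 0.317 and 0.257 (2.42), and the growth factor FGF7 at 1.42 and 1.28 against 0.425 and 0.364 (1.78). The serine protease PRSS23 was at 1.40 and 1.45 against 0.316 and 0.261 (2.31). ALDH1L2, a mitochondrial enzyme of folate metabolism, was at 1.09 and 1.06 against 0.406 and 0.355 (1.51), and ATF5, a transcription factor of the stress response, at 1.49 and 1.56 against 0.562 and 0.555 (1.45).

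Markers of other cell types were read beside the matrix genes. Against cluster 2, 4 of 8 fibro-adipogenic genes were higher and 0 lower, where 5.24% of all genes were higher and 3.45% lower. The list summed to 16 and 15.5 in cluster 4, of which DCN, the proteoglycan decorin, made up 9.99 and 9.56, and to 16.2 in cluster 5 and 14.9 in cluster 9. The largest mean sums were 22.6 in cluster 8 and 18.7 in cluster 7, so the list did not single out cluster 9. The defining receptor PDGFRA was at 0.215 and 0.229 in cluster 4, against 0.121 in cluster 2 (log2 ratio 0.87). In cluster 9, where it marks fibro-adipogenic cells, it was at 1.63 and 1.53. Of 4 pericyte and smooth muscle genes compared with cluster 2, 2 were higher and 0 lower, with a median log2 ratio of 0.91. They were CSPG4, a proteoglycan of pericytes (1.28), and CNN1, the smooth muscle calponin (1.04). The list summed to 9.55 and 9.60 in cluster 4 and to 7.15 ± 0.198 (SD, n = 2 libraries) in cluster 2, of which ACTA2, an actin that cultured cells of several kinds also make, was 8.43 and 8.50 in cluster 4, while RGS5 had 0 UMIs and MYH11 had 12. Endothelial genes had 41 UMIs in all, levels of 0.0120 and 0.0117, mostly TEK, with PECAM1 at 0. Immune genes had 72 UMIs, of which 67 were CD68, with PTPRC and AIF1 at 0. The glial list was made up of S100B alone, at 0.294 and 0.241. A count of 0 allows a level of up to 0.000865 in cluster 4. The part of these markers in the matrix difference was not tested.

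**Figure D3:**
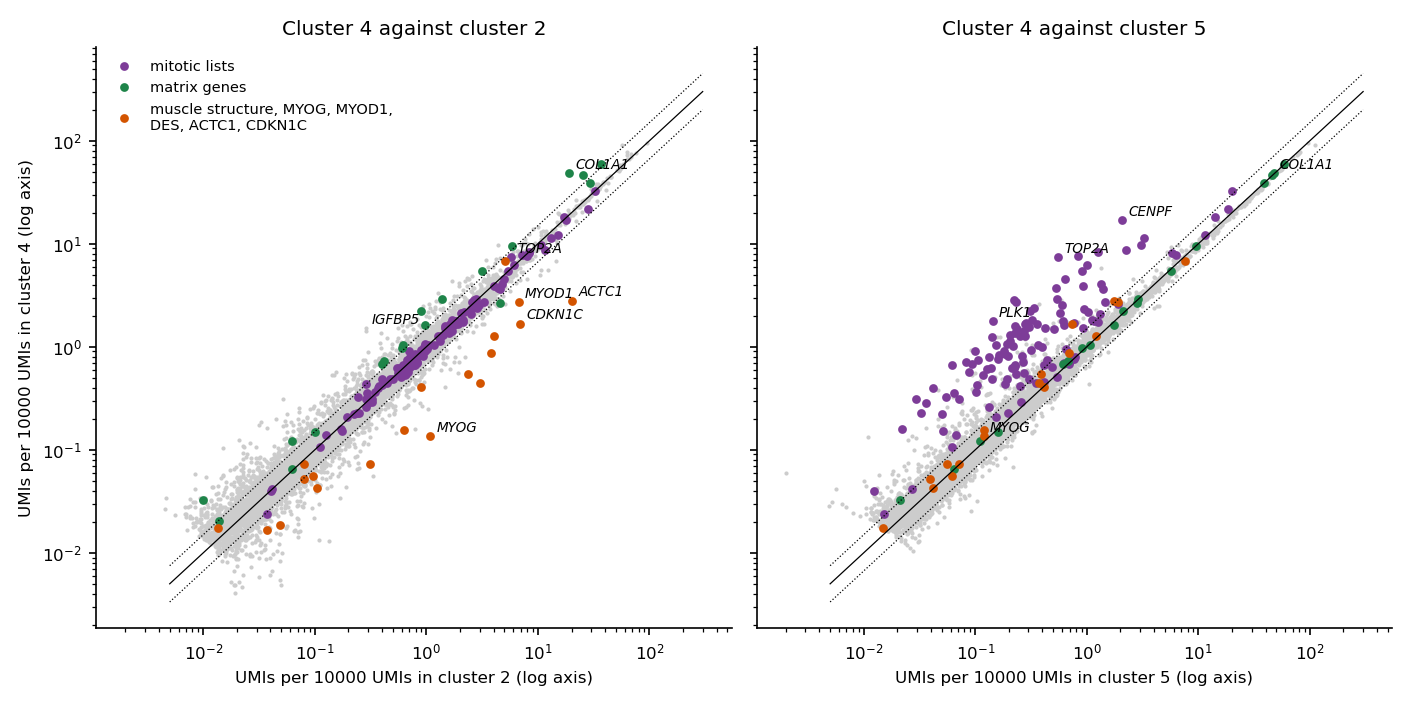
Level of each compared gene in cluster 4 against its level in cluster 2 (left) and in cluster 5 (right), in UMIs per 10000 UMIs on log axes, with mitotic genes in purple, matrix genes in green and muscle genes in orange, equal levels on the solid line and 1.5-fold on the dotted lines. Mitotic genes follow the line against cluster 2 and rise above it against cluster 5, whereas matrix genes do the reverse.

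Of the lists compared between clusters 4 and 5, the mitotic ones held the largest medians. Of 9938 genes compared, 445 (4.48%) were higher in cluster 4 and 104 (1.05%) lower, with a median of 0.02. Mitotic cyclins and kinases were higher for 14 of 16 with a median log2 ratio of 2.44, kinetochore genes for 28 of 32 (1.64), spindle genes for 28 of 33 (2.26), cytokinesis genes for 10 of 10 (2.27), condensation genes for 12 of 15 (1.47) and anaphase promoting genes for 9 of 20 (0.56). TOP2A stood against 0.560 and 0.545 in cluster 5, a log2 ratio of 3.76, PLK1 against 0.155 and 0.133 (3.62), and CCNB1 and CDK1 had 2.84 and 2.83.

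Against the 4.48% higher and 1.05% lower of all genes, of 20 G1 genes 6 were higher and 2 lower, with a median log2 ratio of 0.34, and of 46 replication genes 3 were higher and 1 lower, with a median of 0.17. The S phase list counted 7 higher and 4 lower of 42 genes, with a median of 0.19. CCNE1 and CCNE2, the cyclins of S phase entry, had log2 ratios of −0.87 and −0.71, and CDC6 had −1.69. The higher replication genes were CDC45, of the replicative helicase (0.94), POLA1, the catalytic subunit of DNA polymerase alpha (0.82), and RRM1, of ribonucleotide reductase (0.67). The CDK inhibitors CDKN2D (3.03), CDKN2C (1.93), CDKN1C (1.2) and CDKN1B (0.87) were higher in cluster 4, as were E2F8 (1.43) and E2F7 (0.84), which repress transcription of S phase genes. CDKN1C was thus higher than in cluster 5 and lower than in cluster 2.

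Several other lists counted 0 past the fold in either direction, where 4.48% of all genes were higher and 1.05% lower. Among them were 12 muscle structure genes (median 0.24), 18 matrix genes (0.03), 21 satellite cell genes (0.06) and 8 fibro-adipogenic genes (0.01). At such shares, lists of these sizes would hold few genes or none past the fold. COL1A1 had a log2 ratio of 0.04, COL3A1 0.02 and DCN −0.02. MYF5 had −0.20, and MYOD1 had 0.50, from 2.71 and 2.72 against 1.91 and 1.93, ranges that did not overlap but did not reach 1.5-fold. Of the MYOD1 partners and targets, however, 3 of 12 were higher and 0 lower, among them CDKN1C and ACTC1 (0.67). Genes named as lower were the gap junction protein GJA1 (−0.81), the metallothionein MT2A (−0.78), CTGF, a matricellular growth factor (−0.76), DUSP1, a phosphatase of MAP kinases (−0.69), and ACACB, the mitochondrial acetyl-CoA carboxylase, at 0.448 and 0.422 against 1.03 and 1.06 (−1.26).

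Within cluster 4 the cells varied in their G2/M content. The G2/M list had a median of 131 UMIs per 10000 per cell (133 in replicate 1 and 128 in replicate 2), with quartiles of 97.2 and 172 and a range of 35.2 to 313. Of the cells, 93.7% lay above 68.1, the 95th percentile of cluster 5, as did 96.9% of cluster 2 and 25.1% of cluster 11. The S list had a median of 31.4 in cluster 4, near the 31.5 of cluster 2 and below the 45.6 of cluster 11. When each cell was given instead to the cluster whose average profile fitted its counts best, 1589 cells (89.9%) stayed in cluster 4, and the largest number of those that left, 84, went to cluster 11.

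**Figure D4:**
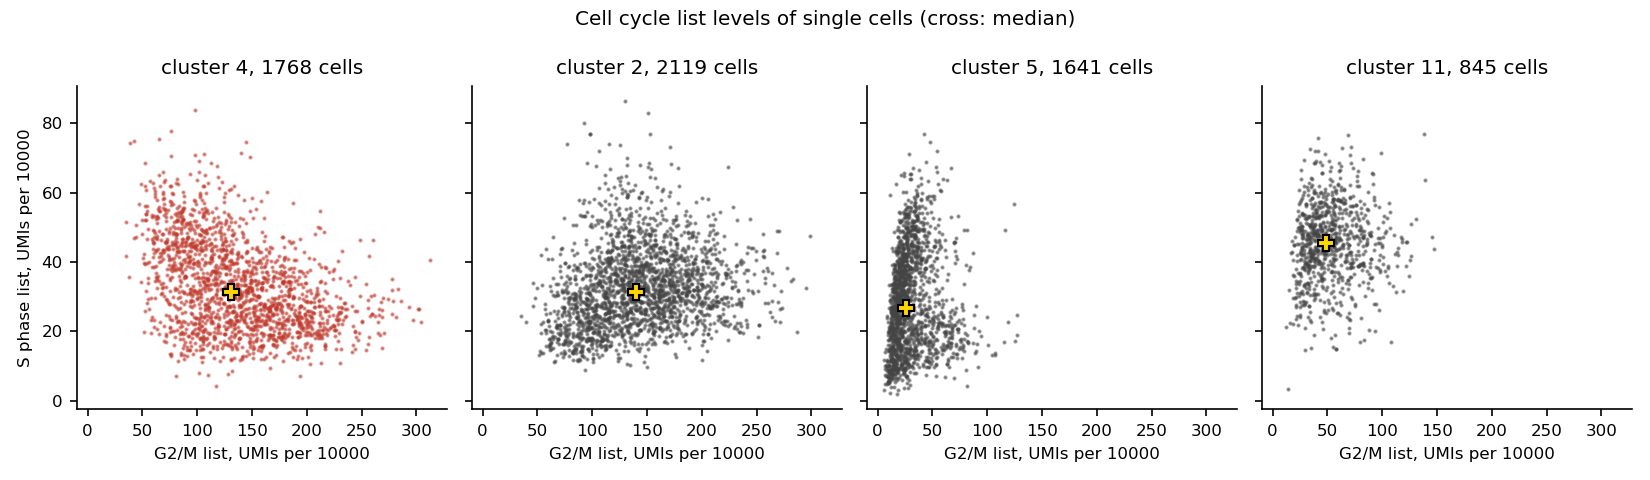
G2/M list against S list in UMIs per 10000 UMIs for each cell of clusters 4, 2, 5 and 11, with the median as a yellow cross. The medians of clusters 4 and 2 lie at 131 and 140 on the G2/M axis, those of clusters 5 and 11 at 25.6 and 48.7.

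Cells were also compared in their MYOD1 content. To compare cells at the same depth, each cell was thinned to 5000 UMIs, which 1764 cells reached. At this depth 53.7% of cluster 4 cells held a MYOD1 UMI (exact 95% interval 51.4% to 56.1%), with 53.5% in replicate 1 and 54.0% in replicate 2. Cluster 2 had a share of 89.8%, and clusters 5 and 11 had 43.3% and 34.7%. In cluster 9, taken as the background, it was 14.6%. At full depth it was 76.6% in cluster 4 and 38.1% in cluster 9, with median depths of 18770 and 23011 UMIs. MYOD1 was thus above background in cluster 4 and below cluster 2 in the share of cells as well as in level.

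The number of MYOD1 UMIs per cell varied. In replicates 1 and 2, 46.5% and 46.0% of the cells had 0 MYOD1 UMIs, 34.6% and 35.5% had 1 to 2, 14.6% and 15.3% had 3 to 5, and 4.30% and 3.27% had 6 or more. The ratio of variance to mean was 2.61 and 2.29, beside 2.68 and 2.22 in cluster 5, 1.79 and 2.04 in cluster 2 and 2.67 and 2.59 for TOP2A in cluster 4. MYF5 was found in 37.2% of the thinned cells, against 26.4% in cluster 2 and 3.70% in cluster 9. Both genes were found in 18.9% of the cells, where independent detection would give 20%. MYOD1 alone was found in 34.8%, MYF5 alone in 18.3% and neither in 27.9%. MYOG was found in 6.41% of cluster 4 cells (exact 95% interval 5.31% to 7.65%), against 21.5% in cluster 2 and 6.76% in cluster 9. Clusters 5 and 11 had 5.25% and 4.38%. The interval of cluster 4 included the value of cluster 9. PAX7 was found in 12 of 1764 thinned cells (0.680%), 10 in replicate 1 (1.10%) and 2 in replicate 2 (0.233%), so that this share rests mostly on replicate 1. At full depth it was found in 39 of 1768 cells (2.21%, exact 95% interval 1.57% to 3.00%), against 1.89% in cluster 11, 1.37% in cluster 2 and 0.278% in cluster 9.

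The cells of cluster 4 were next split by whether a MYOD1 UMI was found at 5000 UMIs, and the full counts of each side were summed per library. The sides held 485 and 463 cells with MYOD1 and 422 and 394 without. The genes other than MYOD1 had not chosen the cells, so they were tested with edgeR's quasi-likelihood test on 2 library sums against 2, whose p-value covers the spread between library preparations only. Of 10647 genes, 110 (1.03%) were higher in the cells with MYOD1 and 50 (0.47%) were lower at a Benjamini-Hochberg adjusted p under 0.05. Sums of the same library are paired, and with a term for the library these counts were 503 (4.72%) and 389 (3.65%).

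The 5 genes with the smallest p that were higher in the cells with MYOD1 were of several kinds. CDKN1C was at 2.26 and 2.62 with MYOD1 and 0.782 and 0.669 without, a log2 fold change of 1.77 (SE 0.095, edgeR adjusted p = 0.00062). NEXN, the actin-binding protein nexilin, was at 6.68 and 6.86 against 4.11 and 4.10, with 0.74. KLHL41, a kelch protein of the sarcomere, was at 0.772 and 0.780 against 0.327 and 0.261, with 1.41. FITM1, a lipid droplet protein of muscle, and PTGIS, the prostacyclin synthase, had log2 fold changes of 1.58 and 0.72. The libraries of the sides did not overlap for any of the 10 genes named by the smallest p in each direction.

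Of 13 MYOD1 partners and targets, 5 were higher and 0 lower, with a median log2 fold change of 0.45 against −0.00207 for all genes. DES was at 1.55 and 1.64 against 0.934 and 0.796, with 0.90 (edgeR adjusted p = 0.00169), and the others were CDKN1C, ACTC1 (1.18), the acetylcholine receptor subunit CHRNA1 (1.08) and RAPSN, which clusters that receptor (0.40). Muscle structure counted 3 of 14 higher, the thin filament gene NEB (1.21), the troponin TNNC2 (1.07) and the caveolin CAV3 (0.79). Of 23 satellite cell genes, 5 were higher and 0 lower. They were FGFR4 (1.45), CD82 (1.01), the adhesion molecule NCAM1 (0.35), the laminin receptor subunit ITGA7 (0.34) and ID1, an inhibitor of MYOD1 and its partners (0.21, edgeR adjusted p = 0.0472). MYOG did not pass (edgeR adjusted p = 0.362), though it did with the library as a block (0.0156). MYF5 was at 1.11 and 0.979 against 1.14 and 1.13 and did not pass either (edgeR adjusted p = 0.682).

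The genes with the smallest p that were lower in the cells with MYOD1 included secreted and membrane proteins. PRSS23 was at 1.02 and 0.989 against 1.85 and 2.04, a log2 fold change of −0.93. IGFBP5 was at 1.16 and 1.12 against 2.11 and 1.91 (−0.80), and FGF7 at 1.06 and 0.908 against 1.85 and 1.76 (−0.86). TMEM158 and PERP, a membrane protein of cell junctions, had −0.63 and −0.58. Of 8 fibro-adipogenic genes 3 were lower, DCN at 8.97 and 8.34 against 11.2 and 11.1 (−0.35), the proteoglycan LUM (−0.26) and PDGFRA (−0.59). With DESeq2 the adjusted p of PDGFRA was 0.186. Of 19 matrix genes 1 was higher, THBS1 (0.42), and 0 were lower, where 1.03% and 0.47% of all genes were. With the library as a block 9 matrix genes passed, where 892 of all 10647 genes did.

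No mitotic gene passed the test in this split. All 6 mitotic lists counted 0 genes in either direction, where 1.03% of all genes were higher and 0.47% lower. At such shares, lists of these sizes would hold few calls or none. Their medians ran from −0.03 to 0.05. With the library as a block, 4 of 15 condensation genes passed and between 0 and 2 genes of each other mitotic list. Of the G2/M list 7 of 52 passed, where 892 of all 10647 genes did. The median G2/M level per cell was 133 and 128 in the cells with MYOD1 and 133 and 127 in those without. The median depth was 18511 and 19720 UMIs with MYOD1 and 18453.5 and 18231.5 without. Without the cells above the doublet threshold the sides held 426 and 391 cells with MYOD1 and 398 and 363 without, and 138 genes were higher and 78 lower. The comparison with cluster 2 and this split share the cells of cluster 4, so their values stand side by side only. For CDKN1C the log2 values were −2.04 against cluster 2 and 1.77 with MYOD1, and for IGFBP5 they were 2.42 and −0.80.

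**Figure D5:**
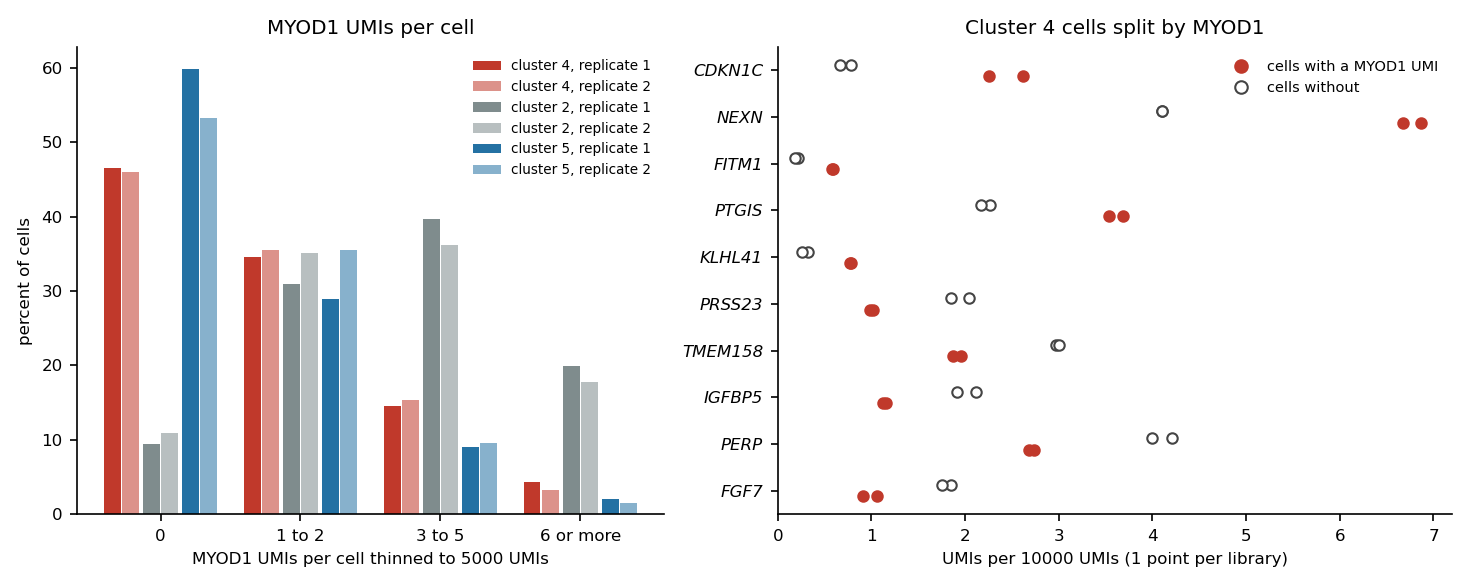
Left, percent of cells with 0, 1 to 2, 3 to 5 and 6 or more MYOD1 UMIs at 5000 UMIs per cell in clusters 4, 2 and 5 of each library. Right, levels in UMIs per 10000 UMIs of the 10 named genes in cluster 4 cells with and without a MYOD1 UMI, 1 point per library, in which CDKN1C lies at 2.26 and 2.62 with MYOD1 and 0.782 and 0.669 without.

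The same split by PAX7 had few cells, 23 and 16 with a PAX7 UMI against 884 and 841 without, each thinned to 5000 UMIs. By edgeR's quasi-likelihood test 0 of 8676 genes were higher and 1 (0.0115%) was lower, and 571 genes had an unadjusted p under 0.05. With the library as a block, 3 (0.0346%) were higher and 4 (0.0461%) lower, and DESeq2 called 1 higher. The lower gene was ID1, at 5.30 and 7.88 against 10.7 and 10.8, a log2 fold change of −0.87 (SE 0.132, edgeR adjusted p = 0.0125), and its adjusted p over the alternatives ran from 4.7e-09 to 0.997. MYOD1 had 0.03 (edgeR adjusted p = 0.998) and MYF5 0.43 (0.781). With 39 cells on one side, the test recovered 11% of simulated 2-fold increases in these cells and 2% of simulated 1.5-fold increases. The simulation used a common dispersion for all genes and no pairing by library. Under these settings most increases of these sizes would have been missed, and decreases were not simulated.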

How the data were processed

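The authors aligned and counted 2 libraries with Cell Ranger 3.0.2 on ARS-UCD1.2, thinned reads to equal mapped reads per cell and clustered both libraries together. The deposited matrix holds whole UMI counts with no further normalization. The authors' table holds a score, the average UMI count per gene and cluster scaled to a common total, which was used only to assign cells in 30 rounds. Its log2 fold change and p-value columns hold the authors' comparisons and were not used.

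The libraries had 145631299 and 137818568 UMIs, with medians of 14626 and 15206 per cell. UMIs were summed per library and cluster. Members and gene lists were chosen with earlier results of these data known. Genes named are those of the lists and, beyond them, the 12 largest and 6 smallest ratios against all other cells, the 8 largest and smallest against clusters 2 and 5, from which a selection chosen after their values were seen is described, and 5 per direction in each split by p. A few genes that meet this rule are not reported here.

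Splits were tested with edgeR 4.0.16 (quasi-likelihood, TMM, filterByExpr, Benjamini-Hochberg) in R 4.3.3, checked on simulated data, with DESeq2 1.42.0 as an alternative. Same-numbered sums come from the same library, which pairs them. Their deviations correlated at 0.392 over 9206 genes in the MYOD1 split and 0.147 over 609 genes in the PAX7 split. The automatic threshold of Scrublet (scanpy 1.11.5) called 1 cell, so the top 8% of scores per library was used, chosen after seeing the scores. Promoter motifs were not analysed here, and no sequences were used.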

Additional observations from a re-analysis of the deposited data

How the results depend on the processing

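The directions of genes past the fold held under most alternatives, and changes of direction in other genes were not counted. Of the ratios of list and named genes, 4998 were within the spread of the libraries and 1416 moved beyond it. Leaving out a library, with 961 ratios for each, could not move a ratio beyond this spread. Leaving out cells under 2000 UMIs could not change the ratios against clusters 2 and 5, which like cluster 4 held 0 such cells. The 4998 therefore include many ratios that could not move. Of all these ratios, 2 turned. With only clusters 1, 2, 3, 5, 8 and 12 as the other cells, BGN had a log2 ratio of 0.10 and CDC6 0.28. The median of the myogenic regulators against cluster 2 was −0.72 in the main comparison and 0.24 without a filter. Against all other cells it was −0.21 in the main comparison, 0.27 without a filter and 0.0075 with only those 6 clusters as the other cells. Counts followed the fold by construction. Against all other cells, 1241 genes were higher and 1137 lower at a lower fold threshold, 163 and 254 at 2-fold and 874 and 885 without a filter, and 805 were higher against those 6 clusters alone. Against cluster 2 these counts were 1282 and 986, 199 and 147, and 965 and 597. Against cluster 5 they were 1054 and 437, 226 and 16, and 678 and 300. A single library has to pass 1 ratio only, and leave-one-out gave 541 to 568 lower genes against cluster 2, and 655 to 702 higher and 244 to 252 lower against cluster 5.

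In the MYOD1 split, 68 genes were higher and 24 lower without a filter. The lower genes were 33 with DESeq2, 78 without doublets and 76 when cells were split at 8000 UMIs. Leaving out any 1 of the 4 library sums gave 49 to 79 higher and 13 to 27 lower, fewest without replicate 2 of the cells with MYOD1, where the lone sum of a side is assumed to vary like the other side. The 10 genes named passed in each alternative. In the PAX7 split, higher genes were 1 with DESeq2 and with its size factors, 4 without doublets and 0 to 4 with 1 sum left out, the 4 without replicate 2 of the cells with PAX7. Lower genes were 0 without a filter and at full depth, 2 without doublets and 0 to 1 with 1 sum left out. With the library as a replicate block, the pairing gave 503 higher and 389 lower genes for MYOD1, and 3 and 4 for PAX7. ID1 lost its call in 5 alternatives. The libraries share 1 animal and 1 culture, clusters and ratios rest on the same counts, and genes with few UMIs, such as PAX7, limit what this depth can show.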

Other observations

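Of 13 stress response genes cluster 4 had 2 higher and 0 lower than all other cells, where 4.55% of all genes were higher. The 2 were DDIT3, a factor of the unfolded protein response, with a log2 ratio of 0.93 and DDIT4, an inhibitor of mTOR signalling, with 1.06. The list median was −0.12 and its summed level 67.8 against 72.9 UMIs per 10000, both lower in cluster 4. Against cluster 2, 3 of the 13 were higher and 1 lower, where 5.24% and 3.45% of all genes were, with a median of −0.14 and a summed level of 79.0 in cluster 2. DDIT3 and DDIT4 had 1.30 and 1.31, the chaperone HSPA5 had 0.66 and the heat shock gene HSPH1 had −0.78. Against cluster 5, 0 of 13 were past the fold. The tubulin TUBB differed between the libraries within cluster 4, at 1.62 in replicate 1 and 3.54 in replicate 2, and also differed between the libraries in other clusters.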
